A study of Mus musculus with 72 samples.

Results

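The genes described here are the 8 that a serotonin neuron uses to make serotonin and the pterin cofactor of its first step: Tph2, Ddc, Gch1, Gchfr, Pts, Spr, Qdpr and Pcbd1. They were chosen by name, and 8 of 8 were present in both count tables of the series, among 17231 genes in the 10X table and 24256 genes in the table of hand-sorted cells. All 8 are annotated as protein coding genes.

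Serotonin (5-HT) is made from tryptophan. Tph2, tryptophan hydroxylase of the brain, adds the hydroxyl group and is the rate-limiting enzyme, and Ddc, aromatic amino acid decarboxylase, then gives 5-HT. Tph2 consumes tetrahydrobiopterin (BH4), which neurons build from GTP through GTP cyclohydrolase (Gch1, the first and rate-limiting step), 6-pyruvoyltetrahydropterin synthase (Pts) and sepiapterin reductase (Spr). Gchfr encodes the feedback regulator that binds GTP cyclohydrolase and passes on inhibition by BH4 and stimulation by phenylalanine. The spent cofactor is returned to BH4 by pterin-4a-carbinolamine dehydratase (Pcbd1) and then dihydropteridine reductase (Qdpr).

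The study profiled single neurons of the mouse dorsal raphe (DR), the largest serotonin nucleus, that carry a history of Pet1 (Fev) expression. Every animal carried Pet1::Flpe+/-, in which the Pet1 promoter drives Flpe recombinase. One 10X Genomics Chromium 3′ v3 run used Pet1::Flpe+/- mice that were also hM3Dq+/+, at a mean age of postnatal day (P) 65.5, and the other used En1::cre+/-;Pet1::Flpe+/-;RC::FrePe+/- mice at a mean of P59. The 70 cells sorted by hand for SMART-Seq v4 came from mice that also carried RC::FrePe+/-, in which fluorescence marks cells that have met both recombinases, and 1 of 4 cre alleles. Sert::cre+/- gave 10 cells of the dorsolateral DR (dlDR; P63 and P90), 9 of the dorsomedial DR (dmDR; P63 and P90), 8 of the ventromedial DR (vmDR; P63 and P90) and 6 of the caudal DR (cDR; P63). P2ry1::cre+/- gave 10 cells of the caudal DR (P62 to P74), Npy2r::cre+/- gave 10 caudal (P77 and P87) and 9 rostral cells (rDR; P77 and P87), and Crh::cre+/- gave 8 rostral cells (P83 and P119). A cre driver reports past as well as present promoter activity, so each group holds neurons with a history of the 2 genes. By the study's methods, more than 1 animal was used for each sorted group, and cells are not tied to animals.

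The 10X table held 2350 cells with 12320 to 134079 unique molecular identifiers (UMIs) each, 869 with the first barcode ending and 1481 with the second, and the 2 endings shared 0 barcodes. The hand-sorted cells held 756872 to 7664103 reads. The 10X barcodes name no animal and the labels of the hand-sorted cells name none, so each sorted group counts as 1 sample and the 10X table as 1 pooled sample. Cells of different ages come from different animals, but the labels do not say which cells of 1 age share an animal. No test between groups was run, and all comparisons below are descriptions with their spread over cells. Fev itself was read in 70 of 70 hand-sorted cells, between 242 and 1205 counts per 1000000 counted in the cell (CPM). Th was found in 5 of those cells, at up to 27.6 CPM, and the dopamine transporter Slc6a3 in 3, at up to 0.985 CPM, so the defining markers of dopamine neurons, which also use Ddc and Gch1, were near 0.

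The genes lie on 7 chromosomes of mm10 (GRCm38; GENCODE M21): Tph2 at chr10:115078641-115185022 and Pcbd1 at chr10:61089331-61094324 on chromosome 10, Ddc at chr11:11814101-11898144, Gch1 at chr14:47153895-47189413, Gchfr at chr2:119167773-119172390, Pts at chr9:50521617-50528724, Spr at chr6:85130176-85137766 and Qdpr at chr5:45434021-45450236. The start regions of Tph2, the member with the highest level, and of Gch1, the member that differed most between groups, are printed from RefSeq (GRCm38.p6) as 250 bases before to 50 after the annotated start, on the minus strand, 5′ to 3′. The windows are chr10:115184973-115185272 and chr14:47189364-47189663. Capitals mark matches on either strand to 5 short motifs, none of which contains another: 1 form of the core bound by ETS factors such as Fev (CCGGAA), the core bound by GATA factors (AGATAA), the TATA box (TATAAA), the GC box (GGGCGG) and the core of the cyclic AMP response element (TGACG).
Tph2: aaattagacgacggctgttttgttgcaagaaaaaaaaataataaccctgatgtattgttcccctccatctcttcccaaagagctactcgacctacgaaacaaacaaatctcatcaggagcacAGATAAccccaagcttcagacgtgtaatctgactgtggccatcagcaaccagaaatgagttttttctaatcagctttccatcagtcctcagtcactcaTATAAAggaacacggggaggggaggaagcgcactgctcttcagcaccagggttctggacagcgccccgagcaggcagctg
Gch1: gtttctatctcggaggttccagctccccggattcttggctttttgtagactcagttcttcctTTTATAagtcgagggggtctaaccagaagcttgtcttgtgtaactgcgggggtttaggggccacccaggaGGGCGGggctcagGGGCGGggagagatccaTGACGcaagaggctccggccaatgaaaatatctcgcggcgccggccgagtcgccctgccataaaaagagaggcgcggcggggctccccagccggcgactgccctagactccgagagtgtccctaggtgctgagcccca
The Tph2 window held 1 match each to the GATA core and the TATA box. The Gch1 window held 1 match to the TATA box, in the opposite direction, 2 to the GC box and 1 to the cyclic AMP response core. Over 32851 RefSeq windows of the same length, 14.9% held the ETS form CCGGAA, 11.2% the GATA core, 13.6% the TATA box, 35.7% the GC box and 20.8% the cyclic AMP response core. Windows were available for 8 of 8 members. The ETS form CCGGAA was found for Pts (2 matches) and Spr (1 match) and not in the windows of Tph2, Ddc (which has 2 annotated starts), Gch1, Gchfr, Qdpr or Pcbd1. Shorter or other ETS forms were not searched, and the letters GGAA within CCGGAA occur on 1 strand or the other in both printed windows. These are letter matches, not binding sites.

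In the 10X cells the members lay in a steep order of level. UMIs of a 3′ assay count molecules and do not grow with transcript length, so they can be set side by side between genes. Tph2 made up 2839.6 CPM (exact 95% Poisson interval 2831 to 2849, counting error only), the 15th highest level of all genes. Gchfr followed with 1367 CPM, above Ddc with 1098 CPM and well above Gch1, the enzyme it regulates, with 486 CPM. Pcbd1 (269 CPM), Qdpr (229 CPM) and Pts (204 CPM) were close to each other, and Spr was lowest with 67.6 CPM, a rank of 2795. The 8 members together took 0.656% of all UMIs.

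Cell by cell, some steps of this order were clear and others were not. Ddc exceeded Gch1 in 97.3% of the 2350 cells, Pts exceeded Spr in 90.2%, Tph2 exceeded Gchfr in 86.6% and Gch1 exceeded Pcbd1 in 82.0%. Gchfr exceeded Ddc in 68.1% only, Pcbd1 exceeded Qdpr in 59.4% and Qdpr exceeded Pts in 57.2%, so these 3 neighbours did not differ beyond their spread over cells. All 8 members had at least 1 UMI in 2116 cells (90.0%), and no cell had fewer than 3 of the 8. The missing ones were unevenly placed. Of the 11 cells without a Tph2 UMI 11 were in cluster 13 (clusters are defined below), as were 14 of 15 without Ddc, 9 of 9 without Gchfr, 50 of 62 without Gch1 and 33 of 36 without Pcbd1, whereas cluster 13, with 144 of the 2350 cells, held 19 of the 153 cells without Spr and clusters 1 to 11 held 115. The cells of cluster 13 were also the shallowest, with a median of 28627.5 UMIs against 59646 over all cells. The table holds no cell type that should lack Tph2, so the share of UMIs from free RNA could not be measured.

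The order in the hand-sorted cells was set by reads per kilobase of annotated exon, since full-length reads grow with length. The median over 70 cells was 3309 CPM per kb for Tph2, 1675 for Gchfr, 782 for Ddc, 355 for Pcbd1, 189 for Qdpr, 166 for Gch1, 37.7 for Pts and 25.3 for Spr. Gchfr again stood above Ddc and Gch1, and Pts and Spr were again the lowest. The lengths join all annotated exons, from 645 bases for Gchfr to 6251 for Gch1, so exons not used in these neurons lower the value of the longer genes. Each of the 8 members was read in 70 of 70 cells, and Tph2 had the highest mean CPM of all genes.

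Cell-to-cell spread was measured after 2297 cells were thinned to 20000 UMIs each (53 shallower cells were left out, 10 of them of cluster 13), as the coefficient of variation (CV) that remains once Poisson counting error is removed, here called excess CV. It was 0.468 for Tph2 and 0.417 for Gch1, the rate-limiting enzymes of 5-HT and BH4 synthesis. Gchfr (0.342), Pcbd1 (0.333) and Pts (0.331) came next. Spr (0.277), Ddc (0.258) and Qdpr (0.230) lay near the median of 0.245 over 3579 genes with at least 1 thinned UMI per cell. Of those genes, 8.35% had an excess CV as high as Tph2, 11.1% as high as Gch1 and 57.6% as high as Qdpr. The 2 enzymes that act one after the other on the indole thus differed: Ddc varied little more than the median gene, and Tph2 varied more than most. The total CV of Spr, 0.908, was almost all counting error (0.865) at 1.34 UMIs per thinned cell. Tph2 was also the member most related to depth, with r = 0.534 between its log-normalized value and log total UMIs, against 0.116 to 0.397 for the others, and its part in the spread was not tested.

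**Figure D1:**
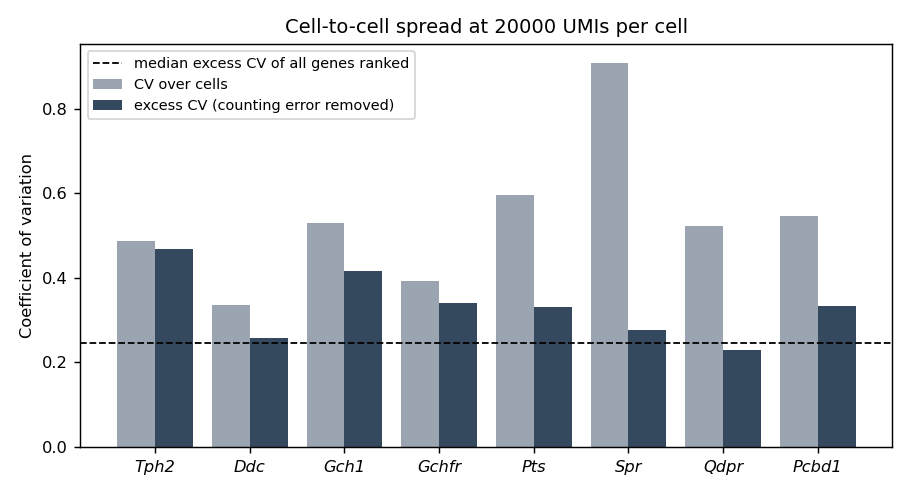
Cell-to-cell spread of the 8 members in 2297 10X cells thinned to 20000 UMIs. Grey bars give the coefficient of variation over cells, dark bars the excess CV after counting error is removed and the dashed line the median excess CV of 3579 genes; Tph2 and Gch1 have the highest dark bars, and for Spr most of the grey bar is counting error.

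The members were not a single co-varying block. Over the 2350 cells, Pearson r between log-normalized values was 0.726 for Tph2 and Ddc, the highest of the 28 pairs. Tph2, Ddc, Gch1 and Gchfr had r between 0.442 and 0.726 with each other, but rank correlation (Spearman rho) gave 0.163 to 0.434 for the same pairs, with Tph2 and Gch1 at 0.168, below Gch1 with Pcbd1 (0.401). Pcbd1 was closest to Gch1 (r = 0.512), and so was Qdpr (r = 0.367). Spr stood outside, with r from -0.0937 with Ddc to 0.0459 with Pts, although it catalyses the last step of the same BH4 pathway. The median of the 28 pairs was 0.319. All values share the cells' total UMIs as denominator, and Spr has few UMIs per cell, and counting error lowers r.

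The values among Tph2, Ddc, Gch1 and Gchfr were lower once clusters 13 and 14 were left out, where Tph2, Ddc, Gch1 and Gchfr were each below their level over all cells. Without those clusters the median of the 28 pairs was 0.0984, and only 2 pairs stayed above 0.3, Tph2 with Ddc (0.379) and Gch1 with Pcbd1 (0.377). Gch1 with Qdpr (0.296) and Gchfr with Pts (0.247) were of a size with Gch1 and Ddc (0.256), while Tph2 with Gch1 was 0.143. Tph2 with Qdpr was -0.195, the lowest value. The values averaged within the 14 clusters were 0.406 for Tph2 with Ddc, 0.216 for Gchfr with Pts and 0.137 for Gch1 with Pcbd1. The relation of Gch1 and Pcbd1 was thus weaker within clusters than over all cells (0.512). Inside cluster 13 alone Ddc and Gchfr reached 0.797 and Tph2 and Ddc 0.686 over 144 cells. Within each barcode ending, Tph2 with Ddc gave 0.779 and 0.671.

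In the 70 hand-sorted cells Tph2 with Ddc was again highest, with r = 0.601 on log2(CPM + 1) values, and 0.645 after each value was centred on its sorted group. Tph2 with Gch1 was 0.490, and 0.310 after centring. Centring took Gch1 with Pts from 0.376 to -0.108 and Gch1 with Pcbd1 from 0.388 to 0.0549. The centred values pool all groups, and P2ry1 cells had the widest spread of Gch1 and Pts, with an SD of 2.10 for each. The values within single groups were not computed. Ddc with Spr was the only pair of the 28 below 0 before centring (-0.0950), and it was the lowest pair in the 10X cells as well. The other pairs with Spr ran from 0.0803 (Gchfr) to 0.289 (Gch1) before centring, above the values of Spr in the 10X cells. After centring, the pairs with Spr ran from -0.0646 (Ddc) to 0.233 (Qdpr), and Gch1 with Spr was 0.0189.

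**Figure D2:**
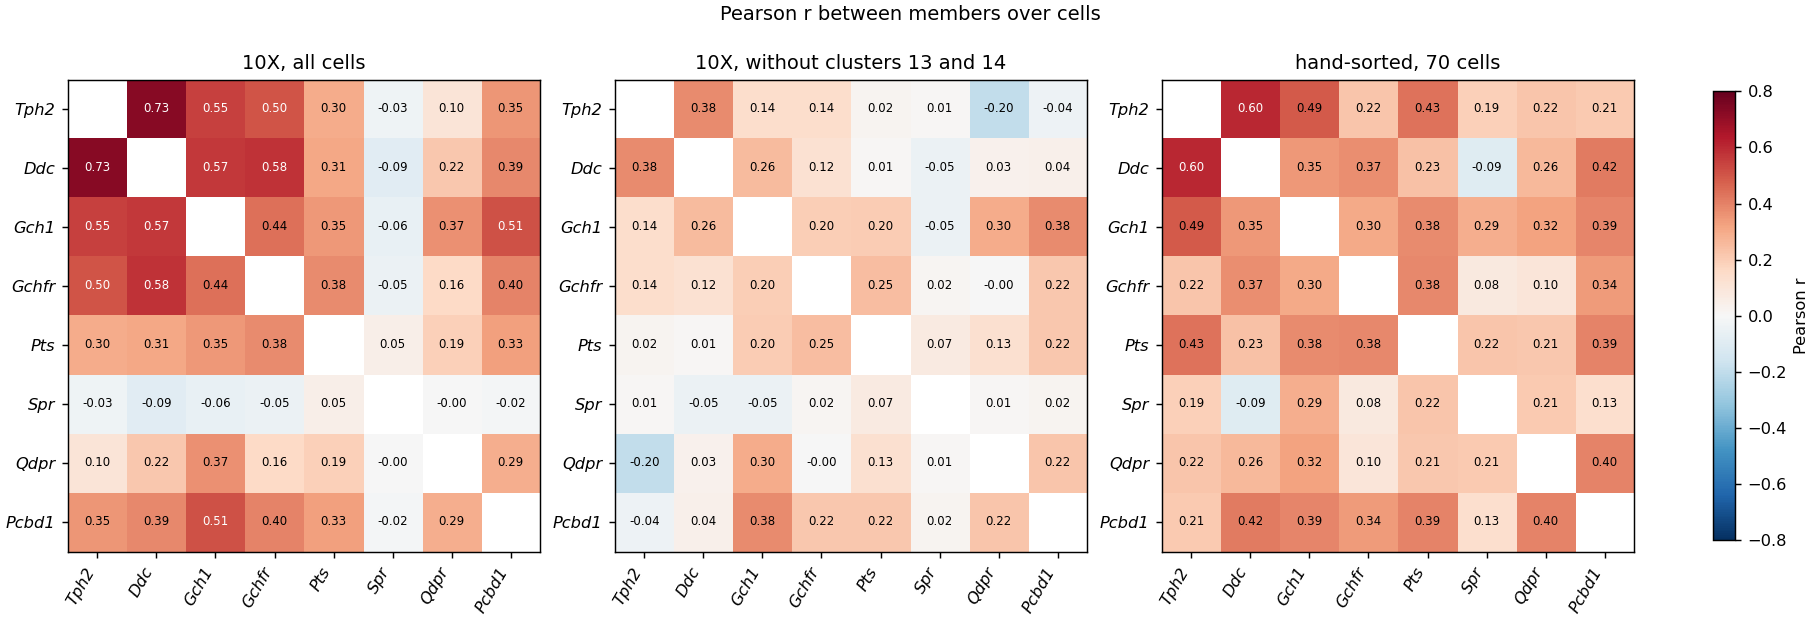
Pearson r between each pair of members over cells, from log-normalized UMIs of 2350 10X cells (left), the same without clusters 13 and 14 (middle) and log2(CPM + 1) of 70 hand-sorted cells (right). Tph2 with Ddc is high in each panel, the Spr row is near 0 in both 10X panels, and the middle panel is paler than the left one.

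Among 11479 genes with UMIs in at least 10% of cells, the 3 most like each member over 10X cells were found. For Tph2 they were the 5-HT transporter Slc6a4 (r = 0.829), the vesicular monoamine transporter Slc18a2 (r = 0.781) and Ddc (r = 0.726). For Ddc they were Slc18a2 (r = 0.748), Slc6a4 (r = 0.735) and Tph2 (r = 0.726), and for Gch1 Slc6a4 (r = 0.706), Slc18a2 (r = 0.661) and Ngfrap1 (r = 0.625). Gchfr was most like Ddc (r = 0.576), Slc6a4 (r = 0.565) and Slc18a2 (r = 0.505). Qdpr and Pcbd1 each had Gch1 as the single most similar gene, followed by Ngfrap1 (r = 0.337) and Rps14 (r = 0.323) for Qdpr and by Ngfrap1 (r = 0.478) and Slc18a2 (r = 0.475) for Pcbd1. Pts was most like Ngfrap1 (r = 0.410), Slc6a4 (r = 0.408) and Gchfr (r = 0.380). Spr differed, with Ndufb8 (r = 0.304), a subunit of respiratory complex I, Atp6v0b (r = 0.295), a subunit of the vacuolar proton pump, and Bex2 (r = 0.285). These are correlations over cells of 1 pooled sample and say nothing of shared control.

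The 10X cells were clustered into 14 groups, numbered to follow the study's marker genes and described here by number and leading genes. Cluster 3 had 0 and clusters 4 and 5 had 1 of those markers among their 10 leading genes, so the numbers are labels only. Tph2, Gch1 and Gchfr were among the 2000 genes used for clustering, so differences between clusters are descriptions only. By summed UMIs, Gch1 had the widest range of all members, although by the median cell Tph2 ranged more widely and Gch1 was lowest in cluster 13. Gch1 was highest in cluster 2 (446 cells, led by Evx1os and Trh) with 665 CPM and lowest in cluster 12 (109 cells, led by Met and Zeb2) with 101 CPM (interval 92.0 to 109.8), a 6.61-fold range. The level in cluster 12 was close to that in cluster 13 (144 cells, led by Galr1 and Nts), 107 CPM (interval 97.4 to 117), and these intervals of summed UMIs overlapped. The spread over cells was unlike: in cluster 13 the median cell had 43.1 CPM, the 90th percentile was 277 CPM and 65.3% of cells had a Gch1 UMI, against 94.5% in cluster 12. The company was different, however. In cluster 13 Tph2 was 644 CPM (143 in the median cell) and Ddc 485 CPM, whereas cluster 12 kept 1702 CPM of Tph2 and 887 CPM of Ddc. Every cell of cluster 12 had UMIs of Tph2, Ddc and Gchfr, and 103 of 109 had Gch1. The median cluster 12 cell had 73.6 CPM of Gch1 and the 90th percentile was 198, below the 10th percentile of clusters 1 to 7, 10 and 11 (227 to 469).

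Pts, which acts just after Gch1, was also low in cluster 12 (100.02 CPM, -1.06 as a log2 ratio against the remaining cells), whereas Spr, the last enzyme, was not (89.0 CPM, log2 ratio 0.41). Gchfr was 848 CPM there (log2 ratio -0.71) and Pcbd1 170.5 CPM (-0.68). The low level of Gch1 in cluster 12 was seen for both barcode endings, at 74.4 and 116 CPM, against 511 and 472 CPM over all their cells. The 106 cells of cluster 12 with a Met UMI held 97.4 CPM of Gch1, and the 33 cells with a Met UMI in other clusters, where Met was 25.0 CPM against 148 in cluster 12, held 516 CPM.

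**Figure D3:**
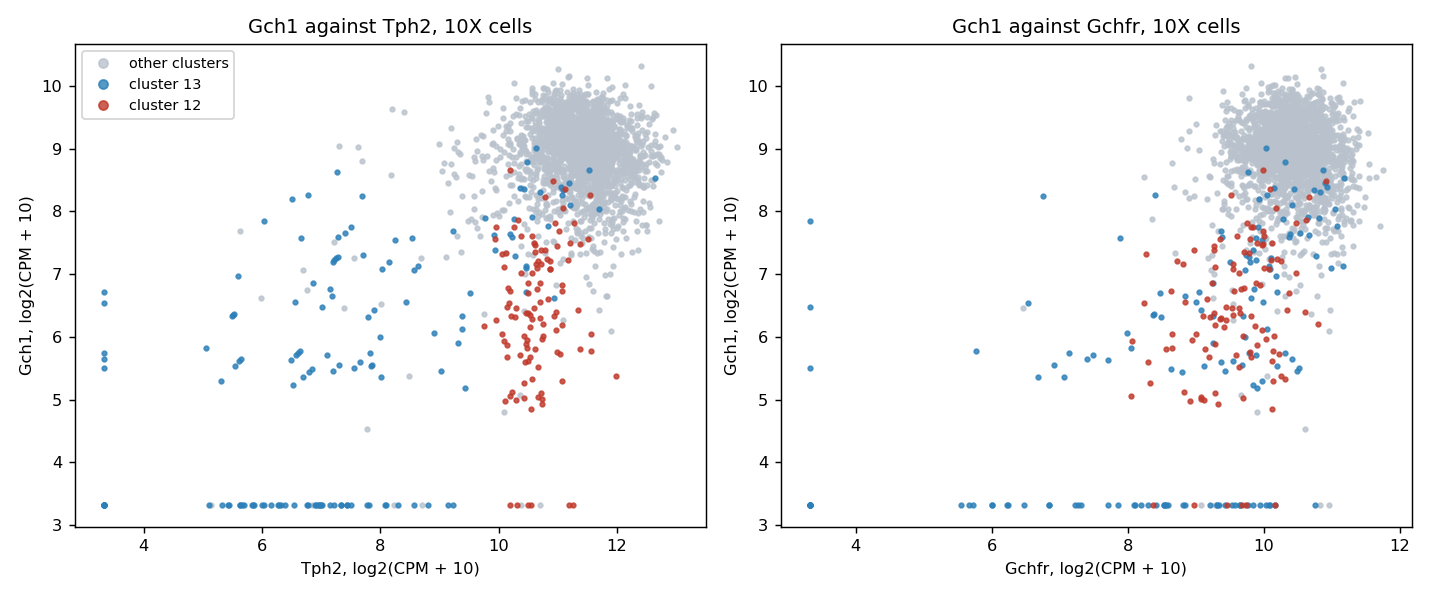
Gch1 against Tph2 (left) and against Gchfr (right) in each of 2350 10X cells, on log2(CPM + 10) axes; points on the lower or left edge have no UMI. Cells of cluster 12 (red) lie below most cells of the other clusters in Gch1, at Tph2 levels above most of cluster 13 (blue).

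Cluster 4 (60 cells, led by Syndig1 and Caln1) had its own pattern. Pts was lowest there, at 88.9 CPM (interval 79.5 to 99.0; log2 ratio -1.22), and so was Spr, at 37.0 CPM (interval 31.0 to 43.7; log2 ratio -0.89). In the same cells Gchfr was at its highest, 1878 CPM, Ddc too at 1258 CPM, Tph2 was 3151 CPM and Gch1 488 CPM, so the 2 enzymes downstream of Gch1 were low where Gch1 was not. The interval of Gchfr (1834 to 1922) overlapped that of cluster 9 (1808 to 1862). The interval of Ddc (1222 to 1295) overlapped that of cluster 3 (1232 to 1262). For the barcode endings apart, Pts was 77.7 and 92.9 CPM in cluster 4. Cluster 9 (159 cells, led by Sfrp1 and Maf) differed in another way, with Gch1 at 298 CPM (log2 ratio -0.75) and Gchfr at 1835 CPM (0.46). Its cells ran from 152 to 436 CPM of Gch1 between the 10th and 90th percentiles, and from 1100.0 to 2426 CPM of Gchfr, ranges that overlap those of most clusters.

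As a ratio of summed UMIs, Gch1 to its regulator Gchfr was 0.355 over all cells. It reached 0.498 in the Trh cells of cluster 2 and was 0.163 in cluster 9, while clusters 13 and 12 had 0.130 and 0.119. The ratio of Tph2 to Ddc was highest in cluster 11 (3.46; led by Proser2 and Syt2) and lowest in cluster 13 (1.33). Cluster 2 was at the top for Gch1, Pcbd1 (361 CPM) and Qdpr (273 CPM), while its Tph2 (2382 CPM) was below that of all other cells (2943 CPM). Qdpr had the narrowest range, 1.70-fold between 160.3 CPM (cluster 13) and 273 CPM (cluster 2). Members' shares of all UMIs were between 0.583% and 0.750% in clusters 1 to 11. Clusters 12, 13 and 14 had shares of 0.409%, 0.256% and 0.467%.

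Within cluster 13 the cells were far from uniform. Between the 10th and 90th percentiles Tph2 spanned 30.8 to 1403 CPM, with a median of 143, and Gchfr spanned 57.4 to 1555 CPM. The members lowest there were 5 (Tph2, Ddc, Gchfr, Qdpr and Pcbd1), and Spr was not low (72.1 CPM, log2 ratio 0.10, and -0.05 in the second barcode ending alone). Summed oligodendrocyte markers (3 of 4 in the table) stood at 66.0 CPM here, at 39.6 CPM in cluster 12 and at 23.4 to 33.3 in clusters 1 to 11, and their part in these levels was not tested.

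Counted past a 2-fold ratio to all other cells, the members lower were 4 in cluster 13 (Tph2, Ddc, Gch1 and Pcbd1), where 7.56% of 9127 genes with at least 1000 UMIs passed 2-fold in either direction, 2 in cluster 12 (Gch1 and Pts), where 8.52% passed, and 1 in cluster 4 (Pts), where 5.05% passed. No member passed 2-fold in the others, for which the shares of all genes were 3.42%, 3.69% and 2.39% in clusters 1 to 3, 2.64%, 2.76%, 2.52%, 3.17%, 2.66%, 2.07% and 2.74% in clusters 5 to 11 and 5.92% in cluster 14. The clusters were drawn on these cells, so nothing is read from those counts.

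**Figure D4:**
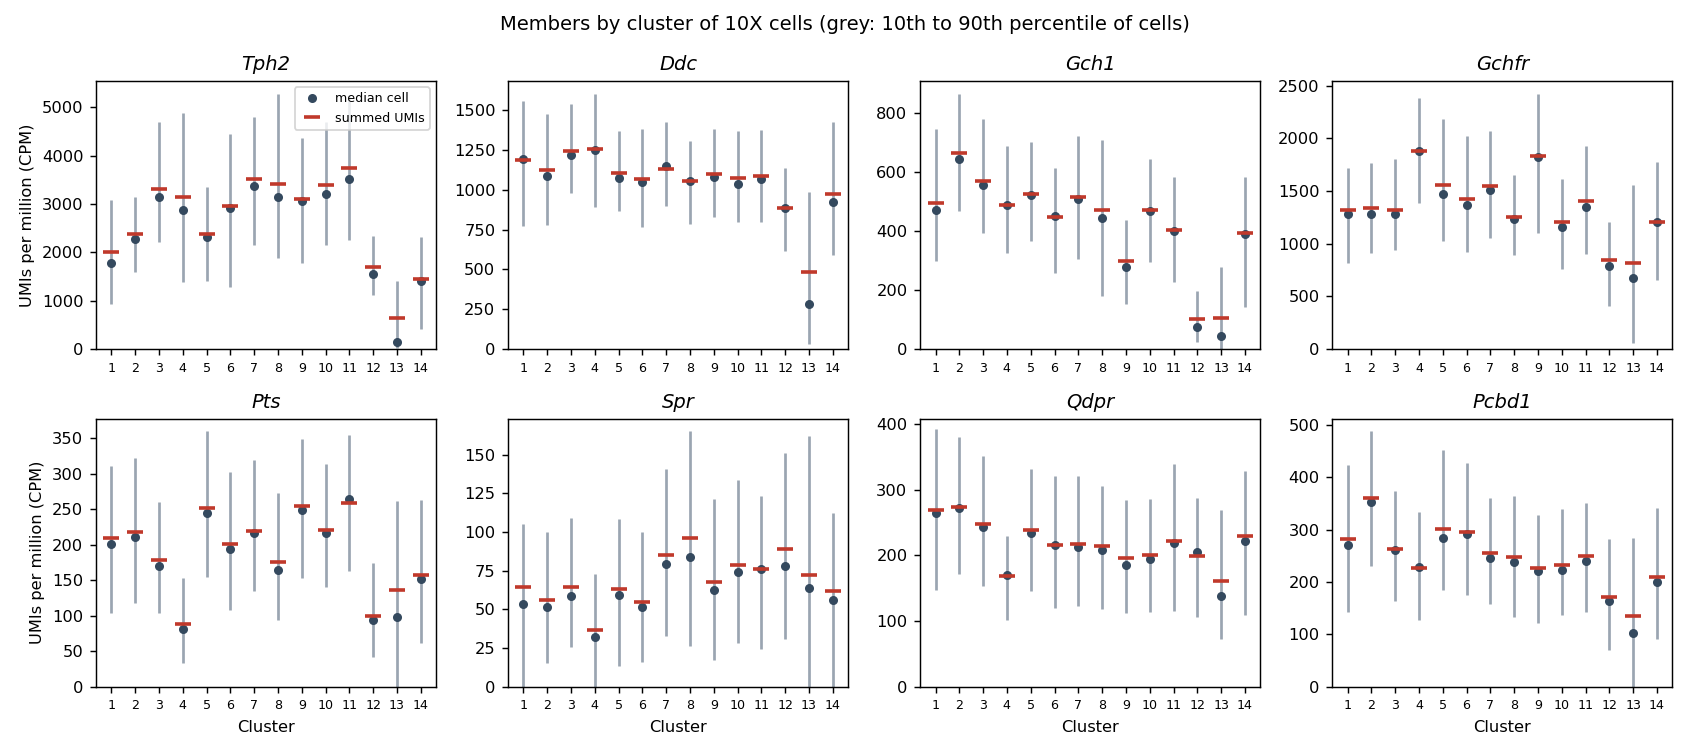
Level of each member (CPM) in the 14 clusters of 10X cells. Points give the median cell, grey lines the 10th to 90th percentile of cells and red marks the value from summed UMIs; Gch1 is low in clusters 12 and 13, Pts in 4 and 12, and Tph2 in 13.

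The 8 sorted groups were defined by genotype, reporter fluorescence and dissection, and Gch1 was again the member with the largest difference. Gch1 ranged from 626 to 2222 CPM (median 1605) in the 10 Sert dlDR cells, 506 to 1745 CPM (median 1143) in the 9 Sert dmDR cells and 519 to 1279.8 CPM (median 997) in the 8 Sert vmDR cells. It was 495 to 1255 CPM (median 1005) in the 6 Sert cDR cells, 308 to 1603 CPM (median 884) in the 10 Npy2r cDR cells, 415 to 1363 CPM (median 1142) in the 9 Npy2r rDR cells and 606 to 1869 CPM (median 1088) in the 8 Crh rDR cells. In the 10 P2ry1 cDR cells it was 2.65 to 307 CPM (median 128). The 7 other groups overlapped each other widely, and the P2ry1 cells lay apart, their highest cell (307.13 CPM) just under the lowest of the other 60 (307.51 CPM). Of 12068 genes with at least 10 reads in at least 6 cells, 2 had all P2ry1 cells below all other cells (0.0166%), Gch1 and Syn2, a synaptic vesicle gene named here after its values were seen. In the other direction, 3 genes had all P2ry1 cells above all other cells, and no member was among them.

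On the scale of mean log2(CPM + 1), Gch1 in P2ry1 cells was -3.69 from the mean of the other 7 groups' cells, with an SD of 2.10 over the 10 cells. The low cells came from several ages. The single P62 cell held 2.65 CPM, the single P63 cell 211, the 4 P64 cells 91.3 to 307, the 2 P66 cells 9.50 and 65.2, and the 2 P74 cells 134 and 287. These cells were not shallow, with 3999547 to 6416860 reads each, but they had fewer genes detected (median 7947, against medians of 8809 to 9780.5 in the other groups), and the median log2 difference of all genes was -0.44. The part of this shift in the members' values was not tested.

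Alongside Gch1, Pts was 0.686 to 204 CPM (median 136) in P2ry1 cells and 165 to 587 CPM (median 318) in Sert dlDR cells, the group with the highest median. Spr was 3.48 to 168 CPM (median 38.9) in P2ry1 cells and 28.9 to 194 CPM (median 141) in Npy2r rDR cells. For both genes the P2ry1 cells overlapped every other group. Their log2 differences were -1.64 for Pts and -1.22 for Spr, with SDs of 2.10 and 1.75 over cells, and the value for Pts rests in part on the P64 cell with 4 reads (0.686 CPM), beside 42.9 CPM in the next lowest P2ry1 cell. With medians over cells in place of means the difference was -0.88 for Pts, and with a pseudocount of 10 CPM that of Spr was -0.92, both within 1. Thus 3 of the 8 members were past 1 on the log2 scale, all lower, in P2ry1 cells, where 31.3% of all genes were past 1. Tph2 (-0.62), Gchfr (-0.68), Pcbd1 (-0.53), Ddc (-0.25) and Qdpr (-0.20) were within 1. The shift of all genes and the share past 1 depend on the scale, since with a pseudocount of 10 CPM the shift was -0.15 and 8.24% of genes were past 1, and with medians over cells the shift was -0.03. The median over the 8 members was -0.65, against -0.44 over all genes. Summed oligodendrocyte markers were at a median of 0 CPM in P2ry1 cells (highest cell 85.8), and at medians of 15.4 to 43.4 CPM in the other groups.

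Tph2 itself was 2720.4 to 12509.5 CPM (median 6676) in P2ry1 cells, which held the lowest of the 70 cells, and 6658 to 13953 CPM (median 11385) in Sert dlDR cells. Npy2r cDR cells spanned the widest range, 3073 to 21204 CPM (median 9932). The groups overlapped throughout. The ratio of Gch1 to Gchfr reads had a median of 0.166 in P2ry1 cells and medians of 0.655 to 1.64 in the other groups, a comparison within the same pair of genes that does not depend on length. Unlike Gch1 itself the ratio overlapped, with P2ry1 cells at 0.00287 to 0.563 and Npy2r rDR cells from 0.271.

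The Sert dlDR cells were at the other end. Gch1 was 1.21 above the other groups' cells on the log2 scale, the only member past 1 there, where 15.6% of all genes were past 1. Its mean was 10.5 in Sert dlDR cells and 9.32 over the other groups' cells, which include the P2ry1 cells with 6.33. The difference without the P2ry1 cells was not computed. The difference from all other groups was 0.69 with medians over cells and below 1 also with P63 cells alone. Tph2, Ddc, Pts, Qdpr and Pcbd1 also had their highest medians in this group. Ddc was 2368 to 5144 CPM (median 4580.2), Qdpr 274 to 593 CPM (median 461) and Pcbd1 233 to 581 CPM (median 405). Gch1 was 626 to 2222 CPM in the 5 P63 cells and 1472 to 2135 CPM in the 5 P90 cells. The members' ranges in this group overlapped those of every other group, with 2 exceptions. Gch1 lay above all P2ry1 cells, and Gchfr (lowest cell 796.2 CPM) lay just above all Sert cDR cells (highest 795.4 CPM).

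The 6 Sert cDR cells differed in Ddc and Gchfr. Ddc was 1379 to 2603 CPM (median 2119) there and 3135 to 4286 CPM (median 3765) in Crh rDR cells, and those 2 groups, which also differ in age, did not overlap (all Sert cDR cells were below all Crh rDR cells for 0.414% of 12068 genes). Gchfr was 508 to 795 CPM (median 593) in Sert cDR cells and 1083 to 2224 CPM (median 1453) in Npy2r rDR cells, also older, again without overlap (0.108% of genes). Both pairs were chosen as the extremes after their values were seen. For Gchfr the Sert cDR cells were also below all Sert dlDR (lowest 796.2 CPM) and Sert dmDR cells (lowest 831.4 CPM). Those groups share the driver and include P63 cells. Sert vmDR cells (lowest 610.1 CPM) overlapped, and the shares of all genes were not computed for these groups. The log2 differences of Ddc and Gchfr in Sert cDR cells, -0.74 and -0.92, did not reach 1, although Gchfr reached -1.02 with medians over cells. Spr was 98.7 to 179 CPM (median 131), a difference of 0.80. Tph2 did not share the low Ddc, with 7343 to 11425 CPM (median 8336) and a difference of -0.01, and the Tph2 to Ddc read ratio had a median of 4.43 in this group against 2.24 in P2ry1 cells and 3.73 or less elsewhere. No member was past 1 in Sert cDR cells, where 25.4% of genes were, nor in Sert dmDR (12.5%), Sert vmDR (16.2%), Npy2r cDR (13.1%), Npy2r rDR (15.2%) or Crh rDR cells (17.6%). The Crh rDR cells had the highest median shift of all genes (0.29), and Gch1 and Pts (median 158 CPM) stood at 0.69 and -0.35 there. For Gch1 the mean of the other groups again includes the low P2ry1 cells. The Crh rDR median of Gch1 lay among the medians of the other groups. Qdpr varied least between groups, with differences from -0.31 in Sert vmDR to 0.37 in Sert dlDR cells.

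**Figure D5:**
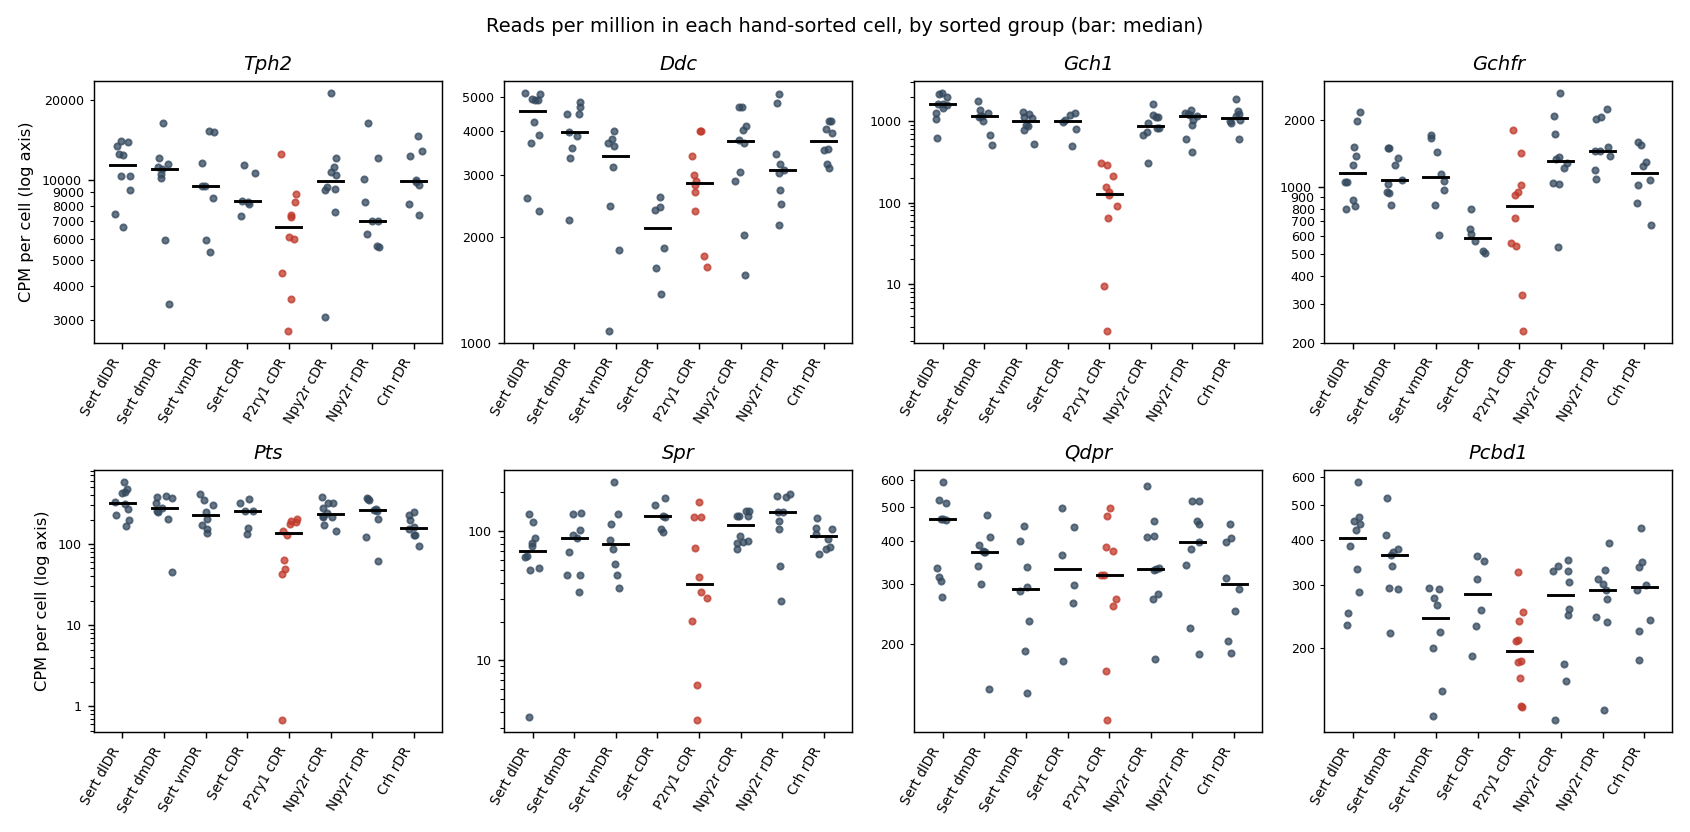
CPM of each member in each of the 70 hand-sorted cells by sorted group, on a log axis; bars are group medians and P2ry1 cDR cells are red. The 10 P2ry1 cells sit below all other cells for Gch1, and for the other 7 members they overlap the other groups.

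The share of each member's log2 variance that lay between the 8 groups was 68.7% for Gch1, a value reached by 0.149% of the 12068 genes. For Gch1 the P2ry1 group stood apart, with a mean log2 value of 6.33 against 9.76 (Npy2r cDR) to 10.5 (Sert dlDR) in the other groups. The share was 37.7% for Gchfr, 35.7% for Pcbd1, 33.0% for Ddc, 30.3% for Pts and 24.3% for Spr. Tph2 (18.7%) and Qdpr (12.6%) were nearest the median gene (13.2%). Tph2 and Gch1, the members with the highest spread over 10X cells, thus differed in how much of their spread in hand-sorted cells followed the groups.

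Other genes of the pathway were followed in lists chosen by function. Of 11 genes for 5-HT handling and identity, 4 were past 1 and lower in P2ry1 cells, namely the transporters Slc6a4 (-2.31), Slc22a3 (-1.77) and Slc29a4 (-1.07) and the transcription factor Gata2 (-1.35), and 1 was higher, monoamine oxidase B (Maob, 1.01), with a median over the list of -0.74 beside -0.44 over all genes. Slc6a4 itself was 64.8 to 2538 CPM (median 845) in P2ry1 cells, against group medians of 2516 to 4744 elsewhere, with overlap. The vesicular transporter gene Slc18a2 (-0.87) and Fev (-0.24) were within 1. Of 9 partners of pterin enzymes and hydroxylases, 8 passed the count filter and 0 were past 1 in P2ry1 cells (median -0.02). Dnajc12, the co-chaperone of aromatic amino acid hydroxylases, was 0.90 there, and Pcbd2, the paralogue of Pcbd1, was 0.45. These lists stand beside the 31.3% of all genes past 1 in P2ry1 cells. In Sert dlDR cells, Slc18a2 (1.09) and Slc22a3 (1.01) were the 2 of 11 handling genes past 1, both higher, where 15.6% of all genes were past 1. Tph1, the hydroxylase of peripheral tissues, had reads in 17 of 70 cells, 6 of them P2ry1 cells, with a maximum of 141 CPM.

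The P2ry1 cells and cluster 12 could be set side by side through Met, the receptor gene that leads cluster 12. Met had reads in 9 of 10 P2ry1 cells (median 86.8 CPM, highest 161) and in 2 of the other 60 hand-sorted cells, at up to 3.45 CPM. Gch1 was low in both, at log2 -2.31 in cluster 12 and -3.69 in P2ry1 cells, and so was Pts, at -1.06 and -1.64. Tph2 was -0.76 and -0.62, Ddc -0.32 and -0.25, Gchfr -0.71 and -0.68, Pcbd1 -0.68 and -0.53, and Qdpr -0.21 and -0.20. Spr parted the 2 data sets, at 0.41 in cluster 12 and -1.22 in P2ry1 cells, where its values had an SD of 1.75. The first values are ratios of summed UMIs to all other 10X cells and the second are differences of mean log2(CPM + 1) from the other 7 groups, so their sizes are not on the same scale. The median over all genes also differed, 0.06 in cluster 12 and -0.44 in P2ry1 cells.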

How the data were processed

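Hand-sorted cells (SMART-Seq v4, Nextera XT) and 10X 3′ v3 libraries were aligned to mm10 by the authors (STAR 2.5.4 and Cell Ranger 3.0.2, per the labels and the submitters' processing notes) and deposited as raw counts, reads per gene for 70 hand-sorted cells and UMIs for 2350 10X cells that the authors had filtered for low Fev, glial, mitochondrial and outlier profiles. From these counts, CPM and log2(CPM + 1) values were computed in Python 3.11.15 (numpy 2.4.6, scipy 1.17.1), and clusters in R 4.3.3 (Seurat 5.3.0; 2000 variable genes, components 1 to 5 and 8 to 50, 20 neighbours, resolution 0.9), numbered by the markers the study names. Scrublet in scanpy 1.11.5 called 14 doublets, which were kept. 10X intervals are exact and cover counting error only. PCR duplicates in the hand-sorted reads were not collapsed by molecular identifiers. Genes of the sorted-group comparison had at least 10 reads in at least 6 cells, and a difference of 1 on the log2 scale was counted as past the threshold. The calculations were tested on simulated data. The text names the 8 members, the 3 genes most like each over the 10X cells, and genes of fixed functional lists. Some genes of these lists are not reported here. Members and lists were chosen with earlier results of these data known. Sex, mouse and sequencing run of single cells were not used.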

Additional observations from a re-analysis of the deposited data

Results flagged for a closer look

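In 64 sets of cells (8 members in 8 sorted groups, on the log2 scale), 8 values lay apart from the rest of their group by Dixon's criterion, which chance alone meets in about 1 of 20 sets, and all 8 were the lowest of their group. For Tph2, Npy2r cDR cell 10 had 3072.8 CPM, the next cell of its group 7583 CPM, and the same cell was apart for Gch1, with 307.51 CPM against 683.5 CPM. Sert dmDR cell 4 was apart for 3 members, Ddc (2238 CPM, next 3360.2 CPM), Pts (45.2 CPM, next 203 CPM) and Qdpr (149 CPM, next 299 CPM). The others were P2ry1 cDR cell 7 for Pts (0.686 CPM, 4 reads, next 42.9 CPM), Sert dlDR cell 4 for Spr (3.66 CPM, 14 reads, next 50.3 CPM) and Npy2r rDR cell 3 for Pcbd1 (135 CPM, next 237 CPM). Npy2r cDR cell 10 is also the cell that sets the narrow gap in Gch1 between the P2ry1 cells and the others.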

How the results depend on the processing

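The following log2 differences kept their sign under every alternative run. Gch1 in P2ry1 cDR cells ranged from -3.71 to -2.76, Pts there from -2.56 to -0.88, Spr there from -1.53 to -0.92, Gch1 in Sert dlDR cells from 0.69 to 1.45, Gch1 in cluster 12 from -2.83 to -2.06 and Pts in cluster 4 from -1.44 to -1.14. Of 352 alternative values of members in sorted groups 29 had the other sign, and of 864 in clusters 41, none of a value past the threshold. The number of members past 1 in P2ry1 cells was 2 to 4. It was 0 in place of 1 in Sert dlDR cells with medians over cells and with P63 cells alone, and 1 in place of 0 in Sert cDR cells with medians over cells. In cluster 14 it was 1 in place of 0 when clustering left out the 8 members and for barcode ending 1 alone, Tph2 in both cases, and it was 3 to 5 in cluster 13 and 2 to 3 in cluster 12. The median r over the 28 pairs in 10X cells, 0.319, was 0.159 by Spearman rho, 0.187 in thinned cells, 0.0984 without clusters 13 and 14 and 0.0973 as a mean within clusters, and in hand-sorted cells it went from 0.296 to 0.189 with values centred on each group. The median excess CV went from 0.332 to 0.298 without clusters 13 and 14. The cause of these shifts was not tested. Leaving called doublets out of the cluster levels and leaving out the hand-sorted cell lowest in Tph2 were chosen after seeing the data. Cluster 14 could not be matched with components 1 to 50, nor clusters 6, 8 and 14 at resolution 0.7. With components 1 to 50 cluster 12 was matched by 42 cells, 67 others with its markers formed a separate cluster, and clusters 8 and 10 held 267 and 71 cells in place of 86 and 239. No paired analysis was possible because the numbers in the labels count cells within a group and pair none between groups. A comparison blocked by the ages that some groups share was not run. Spr, with a median of 3 UMIs per 10X cell, is the member most limited by depth.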
